A study of Mus musculus with 6 samples.

Results

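The genes described here are 36 genes of sterol, fatty acid and triglyceride metabolism, chosen by name as a list of 13 sterol genes, 10 of fatty acid synthesis, 5 of triglyceride synthesis, 5 of fatty acid oxidation and 3 of cholesterol efflux. The array's annotation names 85 probe sets for 35 of them, out of 45101 probe sets and 18193 named genes, and none for Nr1h2, the gene of the oxysterol receptor LXR beta. The brightest probe set of a gene stood for it, and 33 of the 35 genes were bright enough to be tested. The expression arrays are of mouse regulatory T cells (Tregs), the CD4 T cells that keep other immune cells in check, and form 3 groups of 2 arrays. In all groups, green cells of the CD4+CD25+FoxP3+ phenotype were sorted from spleen and lymph nodes of C57Bl/6 FoxP3GFP reporter mice aged 8 to 11 weeks and cultured for 18 h. WT vehicle cells (A2AR+/+FoxP3GFP) received DMSO. KO vehicle cells (A2AR-/-FoxP3GFP), which lack the adenosine receptor A2AR, received DMSO too. WT ATL1222 cells (A2AR+/+FoxP3GFP) received ATL1222, an agonist of that receptor, at 10 nM. The labels call the replicates biological but name no animals, and the p-values therefore cover only the variation among the 6 arrays, part of which may be technical.

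Cells make cholesterol from acetyl-CoA through the mevalonate pathway, and when sterols are scarce the transcription factor SREBP-2 (Srebf2) is escorted out of the endoplasmic reticulum by Scap and raises the enzymes of that pathway, while Insig1 and Insig2 hold it back. SREBP-1 (Srebf1) acts more on the enzymes that make and desaturate fatty acids, which are then esterified to triglycerides for storage or burned in mitochondria by beta-oxidation. Proliferating T cells draw on lipid synthesis for membranes, and Tregs are known to rely on mitochondrial oxidation more than effector T cells do.

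The values are array signals on a linear scale, set by the authors to the same mean on all arrays. Fold changes are on the log2(signal + 16) scale and are given ± the standard error (SE). As a measure of RNA quality, the signal of 3' over 5' probe sets ran from 1.21 to 1.45 for Gapdh and from 1.93 to 2.53 for Actb over the 6 arrays. Of T cell genes, Cd3g lay between 6360 and 8882 and Cd4 between 135.6 and 487.8. Of Treg genes, Ikzf2 lay between 6810 and 8431 and Il2ra between 416.0 and 613.1, and Foxp3 itself lay between 7.18 and 53.5, under the limit for dim genes of 71.2. Of markers of other cells, the 5 myeloid genes summed to between 189.3 and 392.8 in WT vehicle, 270.6 and 290.6 in KO vehicle and 212.6 and 268.8 in WT ATL1222. The 3 measured adipocyte genes summed to between 94.4 and 224.3 over all arrays, and no measured marker was listed at 0.

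Dgat1 was the 1 member that passed the threshold of a limma adjusted p under 0.05. Its call against WT vehicle was lost in some of the other settings run, given below. It rose with the agonist, whereas no other measured member passed in any comparison. With ATL1222 against WT vehicle 1 member rose and 0 fell (limma adjusted p under 0.05), where 0.211% of the 10916 genes tested passed, 0.202% higher and 0.00916% lower. With ATL1222 against KO vehicle 1 was higher and 0 lower, where 0.999% of all genes passed, 0.879% higher and 0.119% lower. These groups differ in both genotype and treatment, and no knockout cells received the agonist. In this comparison genotype and treatment therefore cannot be told apart. In KO vehicle against WT vehicle 0 members passed, where 0.0275% of all genes passed, all of them lower. At an unadjusted p under 0.05, Dgat1 alone was lower there, and 3.89% of all genes reached that level. At that level 2 members were higher and 0 lower with ATL1222 against WT vehicle, Dgat1 and Elovl6, where 5.03% of all genes reached it. All these comparisons share arrays, so their values are set side by side and not correlated.

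Taken as a list, the members lay close to all genes. Their median log2 fold change was 0.06 in the knockout, 0.00 with ATL1222 against WT vehicle and -0.09 with ATL1222 against the knockout, where the medians over all genes were 0.00, -0.01 and -0.02. The median size of the change without regard to sign was 0.15, 0.13 and 0.14 in the same order, against 0.15, 0.16 and 0.18 over all genes. In the knockout 5 members lay above WT vehicle and 3 below with no overlap between groups, as did 15.9% and 13.7% of all genes. With ATL1222 against WT vehicle these counts were 4 above and 7 below, against 14.5% and 16.3% of all genes. With ATL1222 against the knockout they were 5 and 10, against 17.4% and 20.9%. The 95% interval lay within 1 log2 unit on either side of 0 for 29 of 33 members in the knockout, for 26 with ATL1222 against WT vehicle and for 29 with ATL1222 against the knockout. For those genes a change beyond 2-fold lay outside the interval, while the half-width of the intervals, between 0.307 and 0.929 with a median of 0.421, left room for smaller ones.

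**Figure D1:**
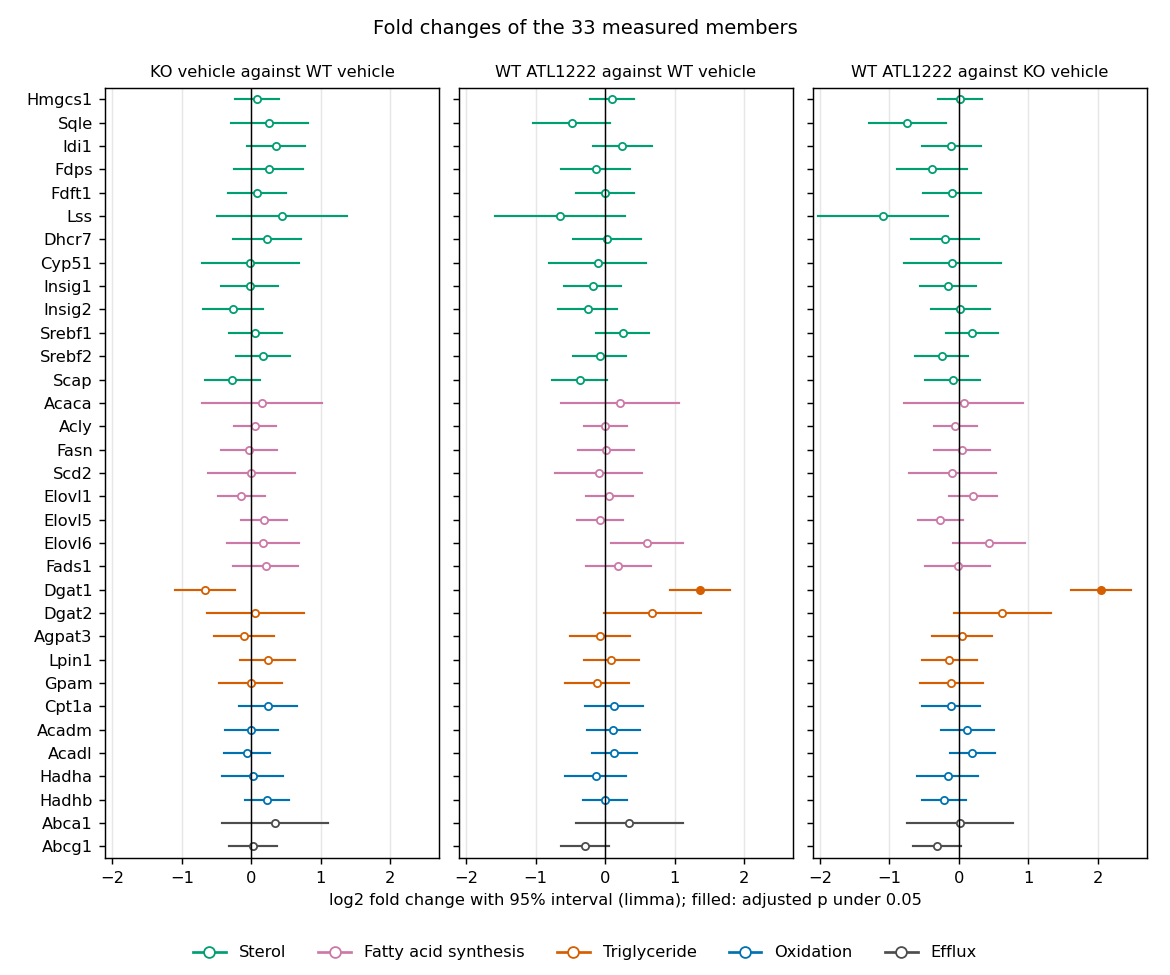
Log2 fold change of each of the 33 measured members (points) with its 95% interval from limma (lines) in the 3 comparisons, coloured by branch; filled points have an adjusted p under 0.05. Dgat1 is the only filled point, at 1.37 for WT ATL1222 against WT vehicle and 2.04 for WT ATL1222 against KO vehicle. Most intervals of other members cross 0.

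**Figure D2:**
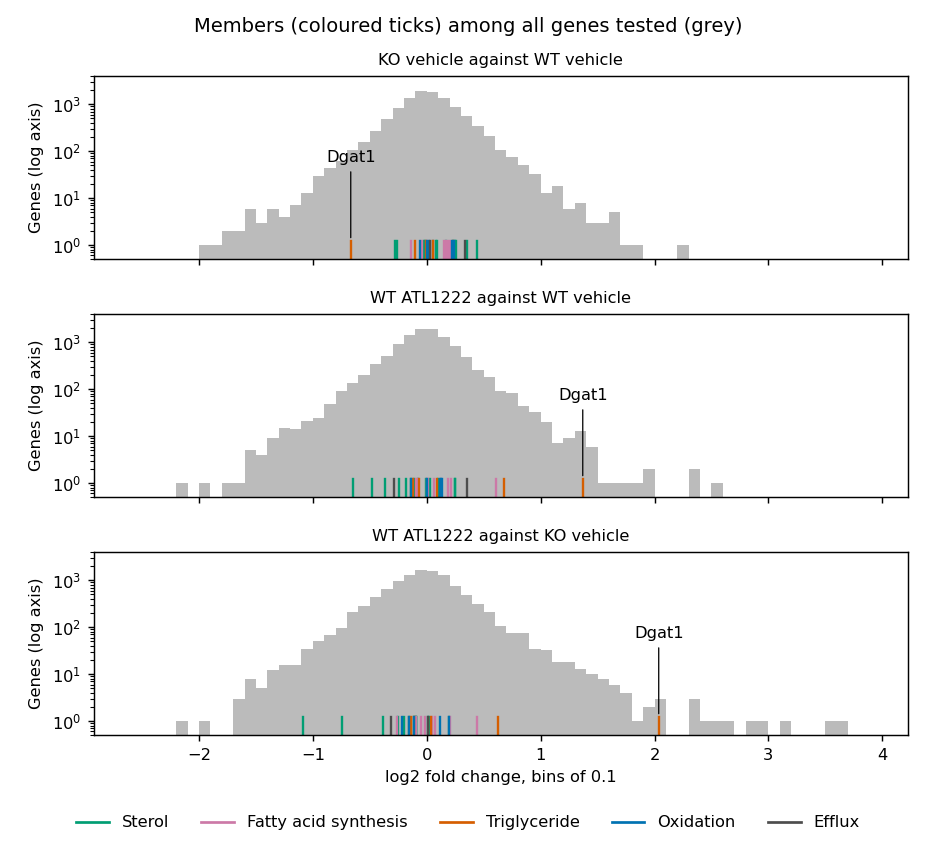
Number of genes (log axis) by log2 fold change for all 10916 genes tested (grey) with the 33 measured members as coloured ticks, in each of the 3 comparisons. The other members lie between -1.09 and 0.68 in all panels. Dgat1 lies at -0.67 in the knockout, 1.37 for WT ATL1222 against WT vehicle and 2.04 for WT ATL1222 against KO vehicle.

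Triglycerides are built from glycerol phosphate by the acyltransferases Gpam and Agpat3 and the phosphatase Lpin1, and the last step is catalysed by either of 2 unrelated diacylglycerol acyltransferases, Dgat1 and Dgat2. Dgat1 signals were 1725.5 and 1012 in WT vehicle, 845.1 and 808.8 in KO vehicle, and 3432 and 3455 in WT ATL1222. The groups did not overlap: both agonist arrays were the highest and both knockout arrays the lowest, and the WT vehicle arrays were the furthest apart. The mean rose from 1369 ± 504 (SD, n = 2) to 3443 ± 15.96 with the agonist, 2.58-fold (log2 1.37 ± 0.20 SE, limma adjusted p = 0.0084). Against the knockout mean of 827.0 ± 25.7 the agonist mean was 4.11-fold higher (log2 2.04 ± 0.20, limma adjusted p = 1.23e-04). In bulk arrays, fewer cells that express a gene and less RNA per cell cannot be told apart. In the knockout Dgat1 was 1.59-fold below WT vehicle and did not pass (log2 -0.67 ± 0.20, 95% interval -1.10 to -0.23, limma unadjusted p = 0.00517, adjusted p = 1.00).

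The agonist difference was log2 0.99 between the replicate 1 arrays and 1.75 between the replicate 2 arrays, and that against the knockout 2.00 and 2.07. The difference between knockout and WT vehicle was -1.02 and -0.32. WT vehicle replicate 2 thus lay nearer to the knockout arrays than to the other WT vehicle array. Without WT vehicle replicate 2, the WT vehicle group was its brighter array alone, and Dgat1 had log2 -1.05 in the knockout. A pass in that comparison then rests on 1 array. The rise with ATL1222 over WT vehicle no longer passed in that fit (log2 0.99). The call against WT vehicle was also lost without WT ATL1222 replicate 1 or replicate 2, each of which leaves 1 agonist array. It was lost too with probe sets averaged (limma adjusted p = 0.0737) and without the variance trend (limma adjusted p = 0.661). That last setting also ended the call against the knockout (adjusted p = 0.111), which held in every other setting run. The sum of B cell markers was highest with the agonist too: 3 measured genes summed to 408.8 and 463.7 in WT vehicle, 408.3 and 508.2 in KO vehicle, and 522.9 and 529.9 in WT ATL1222. This holds for the sum only, since none of the 3 genes had both agonist arrays above all others. Of the 6 Treg markers, Tnfrsf18 was at 7823 and 6331 with the agonist against 2921 to 5124 on the other arrays, Ctla4 at 6410 and 5699 against 3432 to 5124.5, and Nrp1 at 6109 and 5319 against 6667 to 8299. The 6 together summed to 26048 and 21672 in WT vehicle, 23159 and 21077 in KO vehicle, and 29286 and 24884 in WT ATL1222. The part of these B cell and Treg markers in the Dgat1 result was not tested. The 2 CD8 T cell genes summed to between 290.3 and 294.6 in KO vehicle, against 198.6 to 209.8 in WT vehicle and 194.9 to 222.1 in WT ATL1222. Cd8b1 was at 249.1 and 183.8 in KO vehicle, 118.7 and 118.4 in WT vehicle, and 169.0 and 138.6 in WT ATL1222. For Cd8a the knockout arrays, at 45.5 and 106.5, spanned WT vehicle at 79.8 and 91.4 and WT ATL1222 at 53.1 and 56.3. The part of these CD8 T cell genes in the knockout comparison was not tested.

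A second, dimmer probe set of Dgat1 (1445229_at) had signals of 147.5 and 166.2 in WT vehicle, 155.3 and 173.4 in KO vehicle and 291.4 and 364.4 in WT ATL1222. Both agonist arrays were again above all others, and here the knockout and WT vehicle arrays overlapped. With every probe set tested separately it had log2 0.99 ± 0.26 with the agonist over WT vehicle (limma unadjusted p = 0.00306, adjusted p = 0.593) and 0.06 ± 0.26 in the knockout. The main probe set (1418295_s_at) gave an adjusted p = 0.0498 in that fit.

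Dgat2 signals were 199.2 and 135.1 in WT vehicle, 241.7 and 120.8 in KO vehicle, and 258.8 and 288.5 in WT ATL1222. Both agonist arrays were the highest, but replicate 1 of the knockout came close to them. The difference from WT vehicle was log2 0.68 ± 0.33 and did not pass (95% interval -0.02 to 1.38, limma adjusted p = 0.998). Its other probe set, at 44.9 to 151.1 over the arrays, overlapped between all groups. For Agpat3, which makes phosphatidic acid, the brightest probe set ran only from 373.2 to 460.9 and had log2 -0.07 ± 0.20 with the agonist. A dimmer Agpat3 probe set (1433817_at) had 235.0 and 169.3 in WT vehicle, 117.8 and 184.8 in KO vehicle and 287.0 and 308.9 in WT ATL1222, with log2 0.94 ± 0.29 for agonist against knockout (limma unadjusted p = 0.00842, adjusted p = 0.424). The 3 other Agpat3 probe sets did not have the agonist arrays on top, so the gene's probe sets disagree. Lpin1, at 433.1 to 528.1, and Gpam, at 319.1 to 428.2, had log2 0.09 ± 0.18 and -0.12 ± 0.21 with the agonist.

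**Figure D3:**
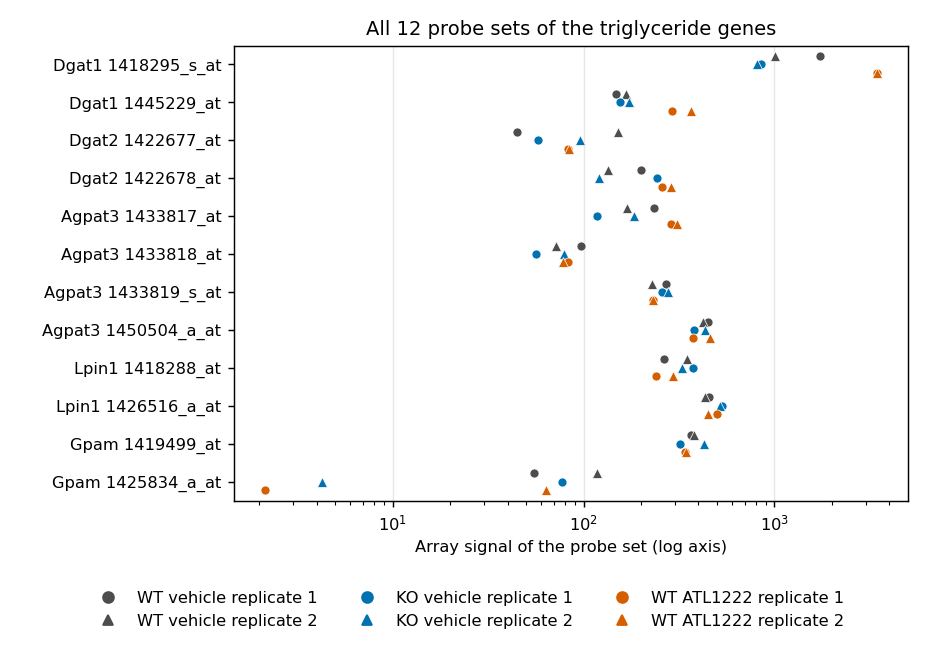
Array signal (log axis) of all 12 probe sets of the 5 triglyceride genes, with a point for each of the 6 arrays (colour for group, shape for replicate). Both Dgat1 probe sets have the 2 agonist arrays above the 4 others, at 3432 and 3455 and at 291.4 and 364.4.

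No gene of the sterol branch passed in any comparison. Of 13 members, 9 had positive and 4 negative log2 fold changes in the knockout, and 4 positive and 9 negative ones with ATL1222 against WT vehicle, where 5 lay below WT vehicle with no overlap and 0 above. Over all genes, 5310 had positive and 5606 negative fold changes in that comparison, and 16.3% lay below and 14.5% above with no overlap. Against the knockout 10 of 13 were negative with ATL1222, with a median of -0.11. Over all genes 5832 were negative and 5084 positive there, with a median of -0.02. In the knockout 5551 of all genes were positive and 5365 negative. The 16 other sterol genes tested did not share the members' tilt. They had 8 positive and 8 negative fold changes in the knockout, and 9 and 7 with ATL1222 against WT vehicle. With ATL1222 against the knockout they had 8 and 8. The 2 members with an unadjusted p under 0.05 for agonist against knockout, both lower, were Sqle and Lss. These are the consecutive enzymes that oxidise squalene and close it to lanosterol. Over all genes 8.48% reached that level in either direction. Sqle signals were 372.4 and 228.9 in WT vehicle, 378.3 and 330.5 in KO vehicle, and 194.0 and 216.8 in WT ATL1222. Both agonist arrays were the lowest, with WT vehicle replicate 2 just above them. The log2 difference of agonist from knockout was -0.74 ± 0.26 (95% interval -1.29 to -0.19, limma adjusted p = 0.320), and from WT vehicle -0.48 ± 0.26 (adjusted p = 0.998). Lss signals were 134.6 and 91.9 in WT vehicle, 221.6 and 109.3 in KO vehicle, and 85.7 and 48.9 in WT ATL1222. Here too the agonist arrays were lowest, but replicate 1 was brighter than replicate 2 in every group. The log2 difference of agonist from knockout was -1.09 ± 0.43 (limma adjusted p = 0.441), at signals near the limit for dim genes. Its 2 other probe sets, too dim to test, had log2 0.25 and 0.07 against the knockout and 0.75 and 0.25 against WT vehicle, so the gene's probe sets disagree. With probe sets averaged, Lss had log2 -0.26 against the knockout and 0.12 against WT vehicle.

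No earlier enzyme of the pathway passed or had an unadjusted p under 0.05. Hmgcs1, which makes the precursor of mevalonate, had signals of 1463 and 1312 in WT vehicle, 1510 and 1427 in KO vehicle, and 1566 and 1402 in WT ATL1222. All 3 groups overlapped, and the 95% intervals of its log2 change ran from -0.24 to 0.40 in the knockout and from -0.22 to 0.41 with ATL1222 over WT vehicle. Idi1, the isopentenyl diphosphate isomerase, was at 649.3 and 459.8 in WT vehicle, 750.8 and 660.1 in KO vehicle and 624.0 and 680.9 in WT ATL1222. It had log2 0.36 ± 0.20 in the knockout (limma adjusted p = 1.00). A dimmer Idi1 probe set (1423804_a_at) overlapped between knockout and WT vehicle, with log2 -0.03 ± 0.23. Fdps, which joins isoprene units, was at 362.6 and 337.6, 501.3 and 350.7, and 363.2 and 276.4 in the same order. Its agonist arrays lay below the knockout array of the same number, with log2 differences of -0.45 and -0.33, but the groups overlapped (log2 -0.39 ± 0.23 for agonist against knockout, limma adjusted p = 0.742). Fdft1, which makes squalene, lay between 640.5 and 903 over the arrays. Of later enzymes, Cyp51 lay between 145.3 and 288.3 and Dhcr7, which completes cholesterol, between 289.1 and 422.8, with log2 differences of -0.11 ± 0.33 and 0.02 ± 0.23 with the agonist over WT vehicle.

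No regulator of the branch passed, although some groups did not overlap. Srebf2 signals were 938.2 and 699.7 in WT vehicle, 930.5 and 898.4 in KO vehicle, and 814.9 and 721.9 in WT ATL1222, with log2 -0.25 ± 0.18 for agonist against knockout (limma adjusted p = 0.821). Both agonist arrays lay below both knockout arrays, while WT vehicle spanned the range of both. Srebf1 signals were 924.7 and 755.4 in WT vehicle, 926.4 and 819.1 in KO vehicle, and 1103 and 904.3 in WT ATL1222. The difference with the agonist was log2 0.25 between both pairs of same-numbered arrays and did not pass (0.25 ± 0.18, limma adjusted p = 0.998). Insig1, a target of SREBP that feeds back on it, was at 548.2 and 651.9 in WT vehicle, 652.6 and 527.9 in KO vehicle and 546.3 and 506.7 in WT ATL1222, and its groups were within log2 0.18 of each other. By their brightest probe sets, Insig2 and Scap were highest in WT vehicle. Insig2 lay at 428.9 and 510.0 there and between 368.1 and 407.6 on the 4 other arrays. Scap lay at 624.1 and 535.8 there and between 430.8 and 483.7 on the others, with log2 -0.28 ± 0.19 in the knockout and -0.37 ± 0.19 with ATL1222 (limma adjusted p = 1.00 and 0.998). Since both differences use the same WT vehicle arrays, they are not independent of each other. A dimmer Scap probe set (1442885_at) had 94.9 and 66.5 in WT vehicle, 72.1 and 70.7 in KO vehicle, and 117.8 and 110.4 in WT ATL1222. Its log2 difference with ATL1222 over WT vehicle was 0.44 ± 0.40, so the gene's probe sets disagree. The other Insig2 probe sets overlapped between all groups.

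RefSeq promoter windows of GRCm38.p6, from 250 bases before to 50 bases after a gene's start, were found for 27 of the 36 genes in 36 windows. They were searched on both strands for the core of the sterol response element that SREBP binds (TCACNCCAC), for the CCAAT box, for the full cAMP response element (TGACGTCA) and for its first 5 bases (TGACG), which the full element contains. The sterol element core was in 1 of the 36 windows, that of Hmgcs1, and in 1.24% of all 32851 windows. The CCAAT box was in 16 of the 36 windows and in 37.4% of all. The full cAMP response element was in 1 window, that of Elovl5, a fatty acid elongase, and in 1.79% of all, and its first 5 bases were in 9 windows and in 20.8% of all. Dgat1, Dgat2, Sqle, Fdps, Fdft1, Scd1, Scd2, Fads1 and Abcg1 are the genes with no entry. The Hmgcs1 window is shown as the one that holds the SREBP element, and is printed for the bases before the start (chr13:119690101-119690350, plus strand), with the sterol element core, from position -137 to -129, and 3 CCAAT boxes, read on the other strand, in capitals. The 30 bases of Elovl5 (chr9:77917357-77917386, plus strand) hold the cAMP response element in capitals, from position 4 to 11 after the start. They are printed because the agonist's receptor signals through cAMP.
Hmgcs1: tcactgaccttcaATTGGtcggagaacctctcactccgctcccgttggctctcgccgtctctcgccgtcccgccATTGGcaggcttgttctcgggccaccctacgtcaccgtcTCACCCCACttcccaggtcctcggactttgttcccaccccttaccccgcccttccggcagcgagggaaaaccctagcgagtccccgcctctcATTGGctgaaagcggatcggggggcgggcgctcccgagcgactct
Elovl5: ccgcgccattgTGACGTCAcggtcagccca
Neither gene passed in any comparison: Elovl5 was at 2864 and 2998 in WT vehicle, 3428 and 3247 in KO vehicle, and 3230 and 2384 in WT ATL1222, with log2 -0.08 ± 0.15 for the agonist over WT vehicle (95% interval -0.41 to 0.25). A match to a motif is a description of these letters, not a site of binding.

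Fatty acid synthesis starts from citrate, which Acly cleaves to acetyl-CoA, continues with Acaca and Fasn, and is followed by desaturases (Scd, Fads) and elongases (Elovl). Of 8 measured members 0 passed in any comparison, and 0, 1 and 0 reached an unadjusted p under 0.05 in the knockout, with ATL1222 against WT vehicle and with ATL1222 against the knockout, where 3.89%, 5.03% and 8.48% of all genes did. The 1 was Elovl6, which elongates saturated and monounsaturated chains: its signals were 254.4 and 201.7 in WT vehicle, 295.2 and 222.8 in KO vehicle, and 370.4 and 336.9 in WT ATL1222. Both agonist arrays were above all others (log2 0.61 ± 0.24 over WT vehicle, 95% interval 0.09 to 1.12, limma adjusted p = 0.831). A second Elovl6 probe set (1417403_at) had the agonist arrays on top too, at 212.8 and 246.6 against 135.1 to 193.9 on the others, with log2 0.28 ± 0.27 over WT vehicle. The last Elovl6 probe set, at 42.9 to 149.4, overlapped between groups and had log2 -0.27 ± 0.53.

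The first steps differed between groups by no more than the spread of the arrays. Acly was at 2403 and 1984 in WT vehicle, 2245 and 2295 in KO vehicle, and 2237 and 2143 in WT ATL1222, and its 95% interval ran from -0.30 to 0.31 with the agonist over WT vehicle. A dimmer Acly probe set (1425326_at), at 253.3 and 178.2, 360.2 and 273.7, and 397.7 and 286.7, had log2 0.63 ± 0.27 in the same comparison (limma unadjusted p = 0.0390, adjusted p = 1.00), so the gene's probe sets disagree. Fasn was at 643.2 and 513.9, 606.2 and 516.0, and 582.3 and 576.9 in the same order, with an interval from -0.39 to 0.41. Acaca, the rate-limiting carboxylase, was dimmer and much less precise, at 91.1 and 211.3, 111.3 and 218.6, and 146.7 and 185.8, with an interval from -0.64 to 1.07. Replicate 2 was the brighter array of Acaca in every group.

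The desaturase Scd2 showed the opposite replicate pattern: 745.3 and 398.3 in WT vehicle, 733.4 and 403.9 in KO vehicle, and 534.8 and 486.9 in WT ATL1222. Replicate 1 was 1.87-, 1.82- and 1.10-fold as bright as replicate 2 in these groups, and the group means were within log2 0.09 of each other. Its relative Scd1 was under the limit for dim genes and was not tested, with 6.92 and 81.8, 45.0 and 76.5, and 10.3 and 17.5 in the same order. By its brightest probe set Fads1, the delta-5 desaturase, was lowest in WT vehicle at 250.7 and 278.9. It was at 292.5 and 323.6 in KO vehicle and 297.7 and 309.4 in WT ATL1222, and did not pass (log2 0.21 ± 0.22 and 0.19 ± 0.22). A dimmer Fads1 probe set (1440444_at) overlapped between all groups, with log2 0.07 ± 0.30 in the knockout and 0.23 ± 0.30 with ATL1222 over WT vehicle. Fads2, the delta-6 desaturase, was also too dim for the test per gene, at 118.3 and 88.6 in WT vehicle, 67.0 and 82.7 in KO vehicle, and 32.3 and 38.2 in WT ATL1222. Its agonist arrays were the lowest, and with every probe set tested separately it had log2 -1.21 ± 0.46 (limma unadjusted p = 0.0229, adjusted p = 1.00). Another Fads2 probe set (1449325_at) was at 66.3 and 109.0 with the agonist, 68.8 and 103.6 in WT vehicle and 19.1 and 19.7 in KO vehicle, so the gene's probe sets disagree. Elovl1, which elongates very long saturated chains, ran from 1026 to 1337 and had log2 0.06 ± 0.16 with the agonist.

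Fatty acid oxidation needs Cpt1a to pass acyl chains into mitochondria, the dehydrogenases Acadm and Acadl for medium and long chains, and the subunits of the trifunctional protein, Hadha and Hadhb. Of these 5 genes 0 passed and 0 had an unadjusted p under 0.05 in any comparison, and their log2 fold changes ran from -0.06 to 0.24 in the knockout and from -0.14 to 0.13 with ATL1222 over WT vehicle. Cpt1a was at 589.0 and 874.4 in WT vehicle, 830.8 and 871.4 in KO vehicle, and 754.3 and 819.0 in WT ATL1222. The low WT vehicle array, replicate 1, carried the higher knockout mean (log2 0.24 ± 0.19, with 0.49 and -0.0050 within replicates 1 and 2). Hadha was at 625.3 and 438.2, 566.8 and 498.4, and 468.0 and 482.0 in the same order, with WT vehicle spanning both other groups. Hadhb was at 2911 and 2986, 3024 and 3922, and 2838 and 3081. Both knockout arrays of Hadhb lay above WT vehicle, replicate 2 by far more than replicate 1 (log2 0.22 ± 0.15, limma adjusted p = 1.00). A dimmer Hadhb probe set (1442732_at) had the knockout arrays above WT vehicle as well, at 270.1 and 322.8 against 159.1 and 203.5 (log2 0.67 ± 0.26, limma unadjusted p = 0.0255, adjusted p = 1.00), and in the other (1426522_at) knockout and WT vehicle overlapped, with log2 0.07 ± 0.14. Acadm ran from 886.3 to 1196 and Acadl from 1206 to 1484, with intervals of the agonist difference from -0.26 to 0.50 and from -0.19 to 0.46.

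**Figure D4:**
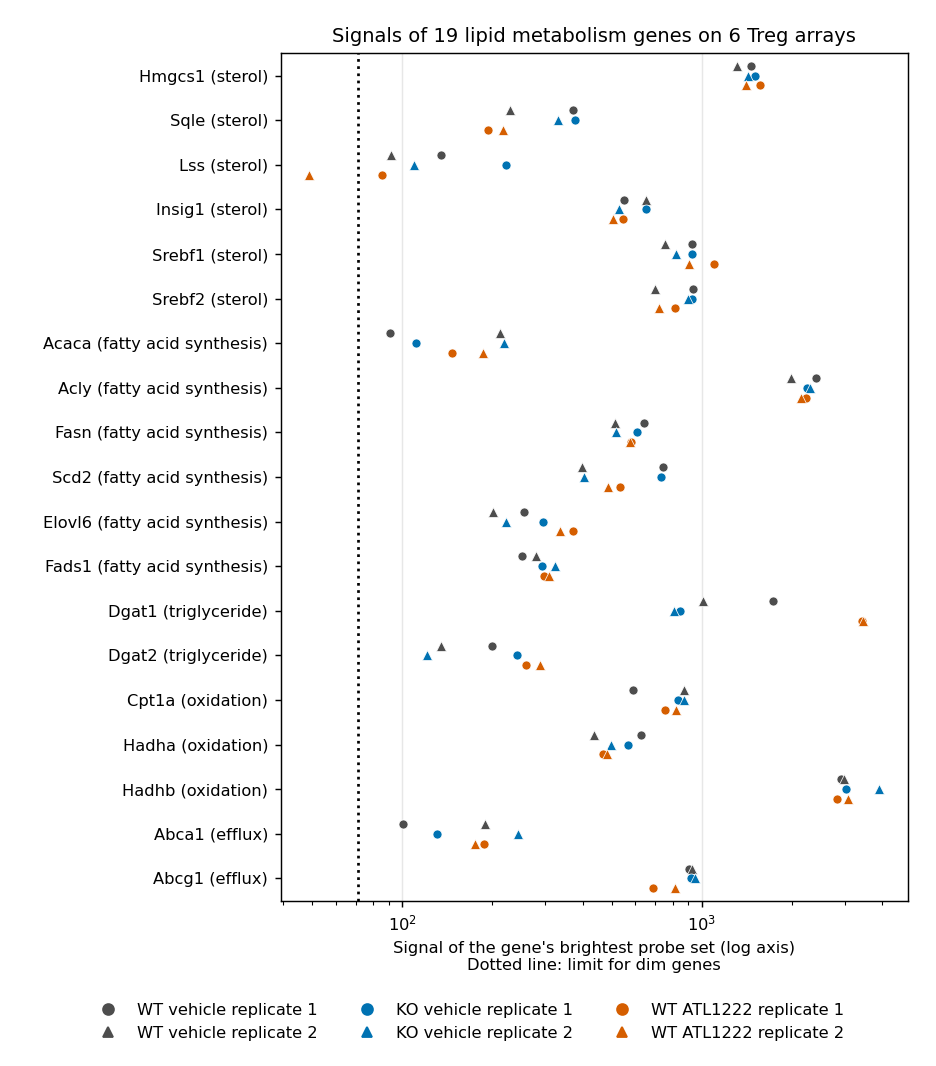
Array signal (log axis) of the brightest probe set of 19 members, with a point for each of the 6 arrays (colour for group, shape for replicate); the dotted line is the limit for dim genes, a signal of 71.2. Dgat1 is the gene whose groups lie furthest apart, and for Scd2 and Acaca same-numbered arrays of the vehicle groups lie closer together than the 2 arrays of either vehicle group.

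Cholesterol leaves cells through the ABC transporters Abca1 and Abcg1, which the LXR receptors induce when oxysterols build up. Abcg1 was at 904.8 and 931.3 in WT vehicle, 924.3 and 946.9 in KO vehicle, and 688.7 and 813.6 in WT ATL1222. Both agonist arrays were below the 4 others, and knockout and WT vehicle overlapped. The difference was log2 -0.29 ± 0.16 from WT vehicle (95% interval -0.64 to 0.06, limma adjusted p = 0.998) and -0.32 ± 0.16 from the knockout (adjusted p = 0.659), and neither passed. A dimmer Abcg1 probe set (1455221_at) had 169.6 and 179.4, 188.0 and 149.2, and 167.7 and 81.3 in the same order, with log2 -0.51 ± 0.35 from WT vehicle. Abca1 was at 100.6 and 188.3, 130.7 and 243.2, and 187.0 and 174.8 in the same order. Replicate 2 was the brighter array in both vehicle groups and not with the agonist, and its interval with the agonist over WT vehicle ran from -0.42 to 1.12. Its 2 other probe sets were dim, at 2.66 to 61.6.

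The signs of change were compared between probe sets of 1 gene, for 20 members with 2 or more probe sets bright enough to test. All probe sets of a gene had the same sign for 10 in the knockout and 7 with ATL1222 against WT vehicle. With ATL1222 against the knockout they did for 10. These counts were not made over all genes. For changes near 0 the signs may differ whatever the precision, so the counts do not measure it. Of 67 tested probe sets of members, 1 passed in each comparison with WT ATL1222 and was higher there, the brighter one of Dgat1. Of 20967 probe sets, 0.0858% passed against WT vehicle and 0.382% against the knockout. The brightest probe sets of Hmgcs1, Fdft1, Elovl1, Elovl5 and Hadhb have names ending in _x_at, which mark probes that may bind other transcripts. Those of Dgat1 and Lss end in _s_at, which marks probes shared by more than 1 transcript.

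Signals also differed by replicate number, among the members and among all genes. On replicate 1 arrays 12 of the 33 measured members were brighter than on replicate 2 in every group, among them Hmgcs1, Fdps, Lss, Cyp51, Srebf1, Srebf2, Fasn, Scd2 and Elovl6, and 6 were dimmer in every group, among them Acaca, Cpt1a and Hadhb. As shares, 36.4% of the measured members were brighter and 18.2% dimmer on replicate 1 in every group, against 24.0% and 15.2% of all 10916 genes. With the replicate number as a block in the fit, Dgat1 remained the 1 member that passed with ATL1222 against WT vehicle (limma adjusted p = 5.98e-04, where 0.724% of all genes passed) and against the knockout (adjusted p = 7.11e-06, where 2.42% passed). In the knockout it did not pass with the block (limma adjusted p = 0.233, where 0.0824% passed).

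Beyond the members, 114 other genes of the same branches were listed, of which 75 were bright enough to test. Of these, 0 passed in any comparison, and 0, 4 and 7 had an unadjusted p under 0.05 in the knockout, with ATL1222 against WT vehicle and with ATL1222 against the knockout, where 3.89%, 5.03% and 8.48% of all genes did. Their median log2 fold changes were 0.03, -0.01 and -0.04. With the replicate block 1 of the 75 passed, with ATL1222 against the knockout, where 2.42% of all genes passed. It was Hacd3, a dehydratase in the elongation of very long fatty acids, higher with ATL1222 than in the knockout. Its signals were 2511 and 1780 in WT vehicle, 1870 and 1571 in KO vehicle, and 3227 and 2426 in WT ATL1222. Replicate 1 was the brighter array in each group, and the agonist array was the brightest of each number. Its log2 difference from the knockout was 0.70 ± 0.19 without the block (limma adjusted p = 0.131) and 0.70 ± 0.11 with it (adjusted p = 0.00193). From WT vehicle it was 0.40 (adjusted p = 0.987, or 0.165 with the block).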

How the data were processed

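The members and gene lists were chosen with earlier results of these data known. Per the submitters' processing notes the authors made probe set signals with GCOS, with no version or algorithm named in those notes. The deposited values are intensities on a linear scale, with the same mean on each array once the highest and lowest 2% of probe sets are left out. No genome build applies to them.

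Here 64 control probe sets were left out. Probe sets with 1 gene symbol (34945) were kept, and symbols were updated by Entrez identifier for 34754. Probe sets with several gene symbols (932) and those not listed in the annotation (9160) were left out. Of several probe sets for a gene, the one with the highest mean log2(signal + 16) was used. The lowest 40% of genes (log2 mean under 6.45) were left out, leaving 10916. limma 3.58.1 (R 4.3.3) was fitted to all 6 arrays, with a variance trend over mean signal and without a block. P-values were adjusted by Benjamini-Hochberg over all genes, with a threshold of 0.05. The fit was run on simulated data only to check its estimates of added changes. Noise was drawn independently for each array there, so the check does not cover a correlation of same-numbered arrays. Precision is limited by having 2 arrays a group, with a median SE of 0.231 on the log2 scale. An exact test of 2 against 2 cannot go below a two-sided p of 0.33.

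Deviations of same-numbered arrays from their group means correlated across genes with r = 0.23, 0.23 and 0.147, so the replicate numbers were taken to pair the arrays, and a fit with that block was run. Members described in full were those past the threshold, the largest change of each branch and comparison, and 14 key genes; single members and probe sets named beside them were chosen after their values were seen. Alternatives changed the pseudocount, filter, probe set rule, normalization, variance trend, samples and block.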

Additional observations from a re-analysis of the deposited data

How the results depend on the processing

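Over 17 alternatives, the count of members past the threshold stayed at 0 in the knockout, 1 with ATL1222 against WT vehicle and 1 with ATL1222 against the knockout, with these exceptions. With ATL1222 against WT vehicle it was 0 with probe sets averaged and 0 without the variance trend, and with ATL1222 against the knockout it was 0 without the variance trend. Leaving out 1 array gave 0 to 1 in the knockout, 0 to 1 with ATL1222 against WT vehicle and 1 in each case with ATL1222 against the knockout. The replicate block changed none of these 3 counts of members. Dgat1's log2 fold change ran from -1.05 to -0.29 in the knockout, from 0.99 to 1.75 with ATL1222 against WT vehicle and from 1.48 to 2.07 against the knockout. Each comparison had 319 recomputed fold changes of the 19 members described in full. Of these, 26 changed sign in the knockout, 19 with ATL1222 against WT vehicle and 16 with ATL1222 against the knockout. None of those was past the threshold in either fit. Over all genes the counts of 3, 23 and 109 ran from 0 to 9, from 0 to 79 and from 5 to 264. The widest intervals among the measured members were those of Lss, Acaca and Abca1, at mean signals of 115.3, 160.8 and 170.8. What made them wide was not tested.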
